A study of Mus musculus with 8 samples.

Results

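Intestinal epithelial cells of mice that carry both stabilised β-catenin and the IKKα AA allele (bCATca_IKKa-AA, called double mutants) were set against those of wild-type mice (WT). The comparison uses 4 of the series' 8 Affymetrix arrays, picked by their labels: 2 of double mutants and 2 of WT. The other 4 arrays, 2 of mice with stabilised β-catenin alone (bCATca) and 2 of mice with the AA allele alone (IKKa-AA), entered the same model and stand beside the comparison, to show which changes of bCATca were also found in double mutants and which were closer to WT. Double mutants carry Ikkα AA/AA, an allele of IKKα that cannot be activated in the usual way and that is present in every cell of the animal, including immune and stromal cells. Stabilised β-catenin (β-cat c.a.) is restricted to the epithelium and switched on by tamoxifen, and the labels do not name the driver. All 4 groups, WT included, shared the strain mixture (C57BL/6 x 129Sv x FVB) and received tamoxifen by gavage on 5 consecutive days, so no group shows cells without the drug. Cells were taken on day 15 counted from the start of the drug, and each array was labelled from 200 ng of RNA. The age of the mice is not given in the sources used here. Nothing in the labels says that arrays of a group came from separate mice, though the 2 WT arrays differ in sex chromosome genes. The p-values cover the spread between the samples at hand, which in the other groups may be technical.

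β-catenin carries the Wnt signal to the nucleus, where it drives the genes of crypt stem and progenitor cells, and its stabilisation makes crypts expand at the cost of the absorptive cells of the villus. IKKα, one kinase of NF-κB activation, is also known from lymphoid organ development. Interferons, secreted after infection or tissue damage, act through transcription factors such as STAT2 and IRF9, which bind the interferon-stimulated response element (ISRE) and switch on a broad antiviral gene set. The intestinal epithelium also houses intraepithelial lymphocytes, mostly CD8-positive T cells with γδ or αβ receptors, which come along when epithelial cells are prepared.

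The values are log2 intensities, a difference is a difference of log2 group means, SE is the standard error from the model, and each group has n = 2 arrays. Arrays carry no read depth, and their number limits the precision. Median intensities of the 8 arrays lay between 50.9 and 53.8. The replicates of the double mutants differed by an SD of 0.304 over all genes and those of WT by 0.292, against 0.431 in IKKa-AA, whose replicate 1 stood apart: on the first principal component it read -10.7, beside -10.5 and -9.65 in double mutants, while replicate 2 read 18.3, toward the 24.8 and 28.9 of WT. WT replicate 1 showed Xist and WT replicate 2 the Y chromosome genes, so these were not the same mouse. Xist on the other 7 arrays and the Y genes on WT replicate 1 read at most 4.03. A group mean up to that level is called near background, where a difference is one of readings and not an exact fold. Both double mutant arrays thus lacked Xist, and their mean for the Y gene Eif2s3y was 7.37. Sex was therefore unbalanced between double mutants and WT, and its part in the differences was not tested. The 3 control probe sets for 18S ribosomal RNA stood at 0.42, 0.60 and 0.62 in double mutants over WT (limma adjusted p from 0.259 to 0.380), with WT replicate 1 the lowest array in each, at 11.31, 9.66 and 10.07. Double mutant replicate 1 stood apart in 15 genes of pancreatic acinar cells, with a mean level of 7.09 against 5.47 in replicate 2 and 5.83 and 5.88 in WT. The label of the cells was borne out by their markers: all 20 measured genes of epithelial identity were above background in every group, with the adhesion molecule Epcam at 12.51 and 12.54 in WT against 12.48 and 12.61 in double mutants, and none of the 20 passed the test. Ctnnb1, which encodes β-catenin, read 11.96 and 12.29 in WT against 12.35 and 12.31 in double mutants, a difference of 0.20 (95% interval -0.15 to 0.56). The alteration acts on the protein, so this level checks no label.

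Double mutants differed from WT in 179 of 12393 genes at an adjusted p under 0.05 (limma, Benjamini-Hochberg over all genes), which is 1.44% of those tested. Of these, 122 were higher (0.984%) and 57 lower (0.46%), and 151 differed at least 2-fold (1.22%), 97 of them higher (0.783%) and 54 lower (0.436%). In the same fit, bCATca differed from WT in 1151 genes (9.29%), of which 440 were lower (3.55%), and IKKa-AA in 1 (0.00807%). Double mutants differed from bCATca in 150 (1.21%) and from IKKa-AA in 7 (0.0565%). These comparisons share arrays. Among the 20 largest increases past the test, 8 stand in the list of interferon-stimulated genes, led by Iigp1 at 5.00 and Ifit2 at 4.17, and among the 20 largest decreases past the test 10 stand in the list of T cells and intraepithelial lymphocytes, led by the chemokine Ccl5 at -4.70 and the T cell receptor subunit Cd3g at -4.49. The smallest adjusted p belonged to Amph, a membrane-bending protein of vesicle uptake. It read 4.54 and 4.72 in WT against 2.39 and 2.17 in double mutants, and fell by 2.35 (SE 0.17, adjusted p = 0.00656). Amph was near background in all 3 mutant groups. The calls rest on few arrays: without WT replicate 1, WT replicate 2, double mutant replicate 1 or double mutant replicate 2, the count was 7, 13, 11 and 11, and Amph alone of the 179 passed in all 8 fits that leave out an array. Without either IKKa-AA array it was 661, and without either bCATca array 119. With the 4 arrays of the comparison alone it was 816, with 379 higher and 437 lower, and cyclic loess and quantile normalisation gave 161 and 198.

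**Figure D1:**
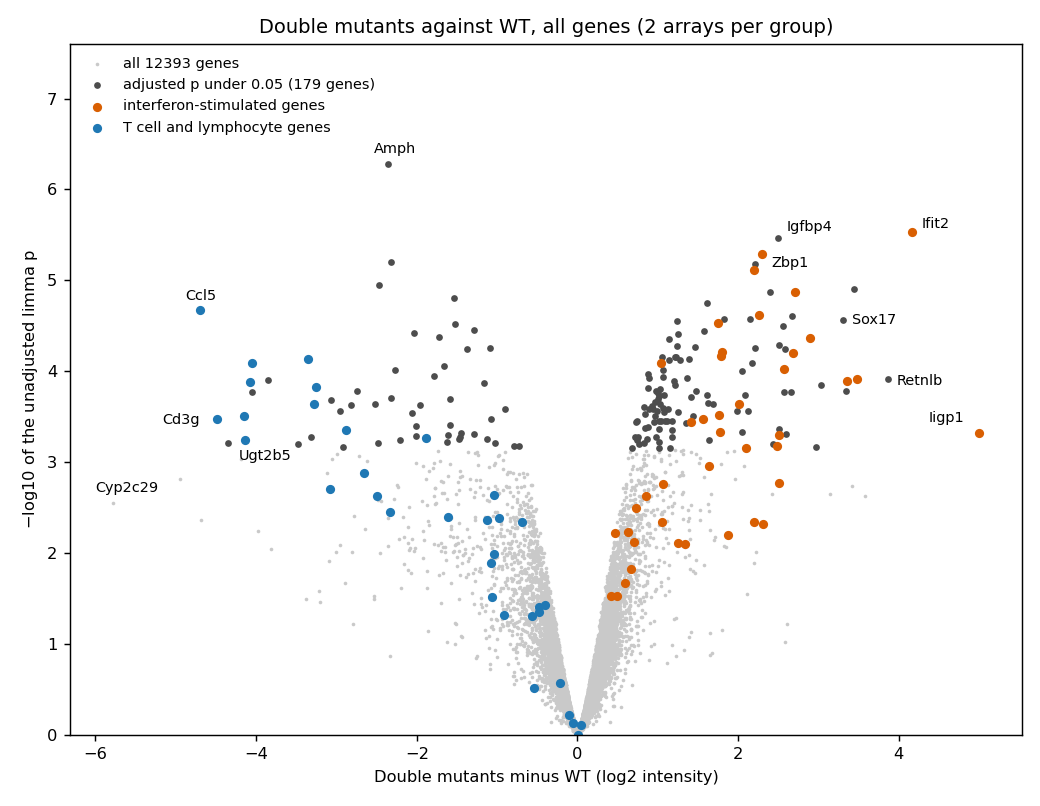
Each point is a gene, with the difference of double mutants from WT in log2 intensity across and the -log10 of the unadjusted limma p upward, 2 arrays per group. The 41 interferon-stimulated genes in orange all lie to the right of 0 and reach 5.00 for Iigp1, and 32 of the 34 T cell and lymphocyte genes in blue lie to the left, down to -4.70 for Ccl5.

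Interferon-stimulated genes were higher in double mutants than in WT as a group. Of 41 measured members, 23 rose (56.1%, against 0.984% of all genes that were higher) and none fell, and the median difference was 1.78 against 0.02 over all genes. Both double mutant arrays were above both WT arrays for 41 of 41, which 28.2% of all genes also showed, and all 41 had an unadjusted p under 0.05, against 9.38% of all genes with higher values. The list was chosen with earlier results of these data known, so its direction is described and not tested.

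The promoters of these genes are shown because the response element of the interferon pathway can be read in them. The core searched was GAAANNGAAA, or TTTCNNTTTC on the other strand, in the 250 bases before each annotated start, and overlapping matches were allowed. Of the 23 genes that rose, 14 had a promoter in the RefSeq table used here (GRCm38.p6), and 10 of the 14 held a match (71.4%). Of the 18 members that did not pass, 16 had a promoter and 5 held a match (31.2%). Over the genes tested on the arrays, 331 of 9888 promoters did (3.35%). A match is a description of letters and shows no binding. The 6 windows whose match lies within 75 bases of the start are printed on the strand of the gene, with every match in capitals:
Gbp3, chr3:142559985-142560034, + strand: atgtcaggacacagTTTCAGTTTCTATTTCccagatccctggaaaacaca
Gbp7, chr3:142530263-142530312, + strand: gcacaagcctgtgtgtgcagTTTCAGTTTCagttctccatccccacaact
Ifit1, chr19:34640784-34640833, + strand: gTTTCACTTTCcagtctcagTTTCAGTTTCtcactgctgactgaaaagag
Irgm1, chr11:48871421-48871464, - strand: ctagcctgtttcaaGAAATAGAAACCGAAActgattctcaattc
Oas1a, chr5:120907526-120907559, - strand: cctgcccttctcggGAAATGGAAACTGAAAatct
Oas3, chr5:120777705-120777754, - strand: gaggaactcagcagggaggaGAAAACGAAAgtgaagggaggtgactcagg

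In Gbp3, Irgm1 and Oas1a a pair of matches overlaps, so that the GAAA unit or its complement comes 3 times in a row, and Ifit1 carries 2 separate matches. The match ends 4 bases before the start in Oas1a, 14 in Irgm1, 29 in Gbp3, 43 in Gbp7, 65 in Oas3 and 75 in Ifit1. The matches of Bst2, Ifit3, Rsad2 and Stat2 lie further upstream, at 114, 112, 110 and 212 bases.

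Iigp1, a GTPase that attacks the vacuoles of intracellular parasites, read 3.73 and 3.23 in WT against 8.55 and 8.42 in double mutants. Its WT mean was near background, and it rose by 5.00 (SE 0.90, adjusted p = 0.0421). Ifit2, which binds foreign RNA, read 4.70 and 4.72 in WT against 8.95 and 8.81 in double mutants. The replicates lay within 0.2 of each other and far apart between groups, an increase of 4.17 (SE 0.38, 18-fold, adjusted p = 0.0137). Bst2, the tetherin that holds budding viruses at the membrane, read 6.11 and 5.81 in WT against 9.62 and 9.26, and rose by 3.48 (SE 0.51, adjusted p = 0.0244). Usp18, which strips the ubiquitin-like modifier ISG15 from proteins and damps the interferon receptor, read 7.86 and 6.96 against 10.68 and 10.85, and rose by 3.35 (SE 0.50, adjusted p = 0.0245).

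Sensors of nucleic acids were among the genes that rose. Zbp1, a sensor of Z-form nucleic acid that can trigger cell death, read 7.50 and 7.70 in WT against 9.92 and 9.88 in double mutants, an increase of 2.30 (SE 0.22, adjusted p = 0.0137). Dhx58, a regulator of RNA sensing, rose by 2.57, a sign shared by 2 of 3 probe sets. The RNA sensor Ifih1 stood at 0.85 without passing (adjusted p = 0.0795). The oligoadenylate synthetases, which make the second messenger of the RNA-degrading response, rose in 4 named members: Oas2 by 2.90, Oasl2 by 2.26, Oas1a by 2.01 and Oas3 by 1.77. Their probe sets may read close relatives of the same family, as may those of the Gbp and Irgm genes. Among the guanylate-binding proteins, which attack membranes of pathogens, Gbp6 rose by 2.68, Gbp3 by 2.20 and Gbp7 by 2.09, and Gbp2 stood at 2.20 (adjusted p = 0.104).

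Among transcription factors of the pathway, Irf7 and Stat2 rose. Irf7, which amplifies the production of type I interferon, read 8.61 and 8.64 in WT against 10.23 and 10.58 in double mutants, and rose by 1.78 (SE 0.24, adjusted p = 0.0199). Stat2 rose by 1.56 (SE 0.27, adjusted p = 0.0348). Irf9, their partner, stood at 0.47 (adjusted p = 0.117) and Irf1 at 0.49 (adjusted p = 0.238), both with double mutant arrays above WT arrays. Mx1, an antiviral GTPase, rose by 1.75 from a WT mean near background.

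**Figure D2:**
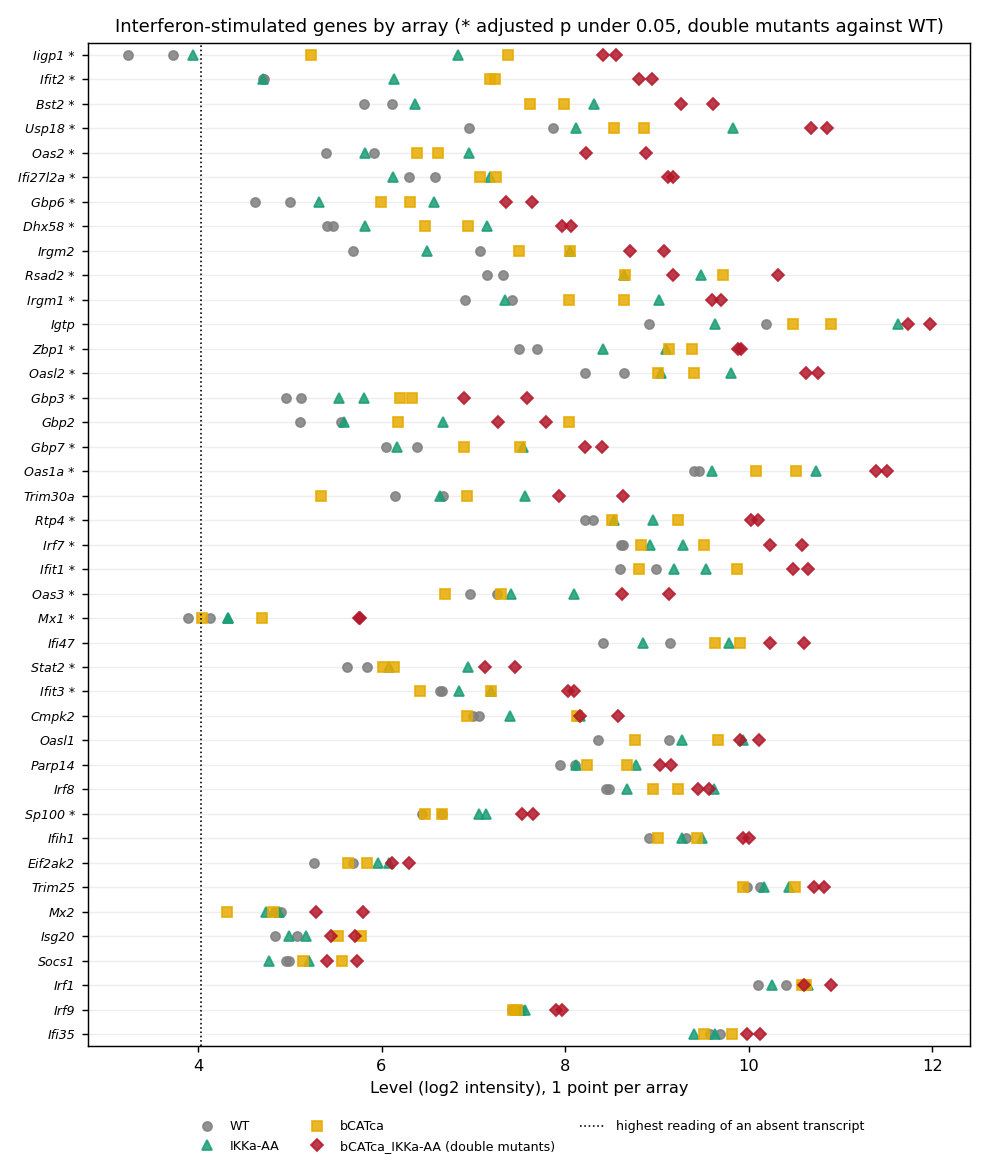
Each row is an interferon-stimulated gene and each symbol the log2 intensity of 1 array, for WT, IKKa-AA, bCATca and double mutants, with a star at genes past the test and a dotted line at 4.03, the highest reading of an absent transcript. The double mutant arrays lie to the right of both WT arrays in all 41 rows, and the IKKa-AA arrays are far apart in many of them, as for Iigp1 at 6.83 and 3.94.

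Beside these values, bCATca arrays had a median difference from WT of 0.64 over the same 41 genes, with 5 that passed (5.74% of all genes were higher in that comparison), and IKKa-AA arrays a median of 0.64 with none. For Ifit2 the bCATca arrays read 7.23 and 7.18, between WT and double mutants. For Oas3 they read 7.31 and 6.69, within 0.2 of WT on average (-0.11), while double mutants exceeded bCATca by 1.88 (SE 0.30, adjusted p = 0.0300). Directly against bCATca, double mutants were higher in 6 of the 41 members (0.403% of all genes were), namely Oas2 by 2.06, Ifi27l2a by 1.99, Oas3 by 1.88, Oasl2 by 1.48, Mx1 by 1.39 and Sp100 by 1.03, and both double mutant arrays were above both bCATca arrays for 36 of 41 (22.6% of all genes). In IKKa-AA the replicates were unlike: the summed linear intensity of the 41 genes was 21058 in replicate 1 and 11865 in replicate 2, against 10946 and 9711 in WT, whereas the bCATca arrays summed to 17670 and 15212 and the double mutant arrays to 32569 and 31626.

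Without WT replicate 1 or 2, 0 of the 41 interferon genes passed, and without double mutant replicate 1 or 2 it was 1, although all 41 kept a value above 0 and the median stayed between 1.76 and 1.93 in these fits. Without either IKKa-AA array 30 passed. T cell markers were lower in the same double mutant arrays, while myeloid markers went both ways, with values given further on. The part of these cells in the interferon result was not tested.

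Genes of neighbouring defence programmes were higher in parts. Of 24 genes of lipopolysaccharide sensing and the inflammasome, 4 rose (16.7%, against 0.984% of all genes) and none fell (median 0.33). Ly96, the cofactor of the lipopolysaccharide receptor, read 5.21 and 4.11 in WT against 6.79 and 6.70 in double mutants, and rose by 2.09 (SE 0.33, adjusted p = 0.0275). Casp4, a caspase that senses lipopolysaccharide inside the cell, read 6.90 and 7.10 against 8.72 and 8.49, and rose by 1.61 (SE 0.18, adjusted p = 0.0169). Tlr1 rose by 1.64 and the lipopolysaccharide receptor subunit Cd14 by 1.02, whereas the receptor Tlr4 itself stood at 0.34 (adjusted p = 0.367) with both group means near background. In bCATca the differences of the same 4 genes from WT were 1.95 for Ly96, 1.26 for Casp4, 1.69 for Tlr1 and 1.32 for Cd14.

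Among 24 antimicrobial and acute defence genes, 2 rose (8.33%, against 0.984% of all genes) and none fell (median 0.58). Retnlb, the goblet cell protein RELMβ induced by helminths and bacteria, read 5.71 and 5.41 in WT, against 9.18 and 9.67 in double mutants, with 8.30 and 9.94 in bCATca, and rose by 3.86 over WT (SE 0.57, adjusted p = 0.0244). Lcn2, which starves bacteria of iron, rose by 2.97 (SE 0.56, adjusted p = 0.0484) from a WT mean near background. The lectin Reg3g stood at 1.05 (adjusted p = 0.0765) and the iron-binding Ltf at 2.43 (adjusted p = 0.0785). Il18bp, the secreted antagonist of interleukin 18, read 5.92 and 5.84 in WT against 8.50 and 8.41 in double mutants, and rose by 2.57 (SE 0.40, adjusted p = 0.0268). It was the only one of 22 genes of the interferon γ and interleukin 12 axis that passed, and the interferon γ-induced chemokines Cxcl9 and Cxcl10 stood at 3.42 (adjusted p = 0.0730) and 1.78 (adjusted p = 0.0570).

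No gene of antigen presentation passed. The median was 0.41 over 19 genes of MHC class I presentation, with the peptide transporter Tap1 at 1.86 (adjusted p = 0.0506), and 0.51 over 13 genes of MHC class II presentation. The class II genes show how much WT arrays could differ: H2-Eb1 read 10.39 and 8.74 in WT against 11.52 and 11.54 in double mutants, a difference of 1.96 (SE 0.42, adjusted p = 0.0683). Without double mutant or WT arrays in turn, 0 to 4 class II genes passed. Of 41 genes of the NF-κB pathway and its targets, Lcn2 was the only one that passed (median 0.16).

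T cell and intraepithelial lymphocyte genes were lower in double mutants than in WT. Of 34 measured members, 11 fell (32.4%, against 0.46% of all genes that were lower) and none rose, with a median of -1.10. Both double mutant arrays were below both WT arrays for 29 of 34, which 23.7% of all genes also showed, and 28 had an unadjusted p under 0.05 with a lower value, against 7.56% of all genes. In these bulk samples, fewer lymphocytes and less RNA per lymphocyte cannot be told apart.

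Ccl5, a chemokine made by cytotoxic T cells, read 11.44 and 10.71 in WT against 6.85 and 5.89 in double mutants, and fell by 4.70 (SE 0.55, 26-fold, adjusted p = 0.0169). The bCATca arrays, at 10.74 and 10.28, were close to WT. Cd3g, a signalling chain of the T cell receptor, read 8.50 and 7.87 in WT against 3.39 and 4.00 in double mutants. The double mutant mean was near background, and it fell by 4.49 (SE 0.77, adjusted p = 0.0348). Cd3d fell by 3.28 (SE 0.53, adjusted p = 0.0298), and Cd3e stood at -2.50 (adjusted p = 0.0798). Cd8a, the coreceptor chain that marks most intraepithelial lymphocytes, read 8.65 and 8.09 against 4.27 and 4.18, and fell by 4.15 (SE 0.70, adjusted p = 0.0333). The helper cell coreceptor Cd4 was low in all groups, at 5.75 and 6.02 in WT against 5.59 and 5.38 in double mutants, and stood at -0.40 (adjusted p = 0.261).

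Genes of γδ receptors and killing were among those that fell. Trgv4, a variable segment of the γ chain, read 9.20 and 8.59 in WT against 4.85 and 4.84 in double mutants, and fell by 4.05 (SE 0.57, adjusted p = 0.0203) with 3 of 3 probe sets in that direction. Trgv1 and Trbv1, a segment of the β chain, fell with differences of -3.48 and -2.95. Probe sets for receptor segments may read related segments. Gzma, a granule protease, read 12.10 and 11.85 against 9.01 and 8.42, and fell by 3.26 (SE 0.49, adjusted p = 0.0261), so it was still well above background in double mutants. Klrd1, an inhibitory receptor of killer cells, the cytotoxic granule protein Nkg7 and the killer receptor Cd160 fell, with differences of -4.14, -2.88 and -1.88, whereas Gzmb stood at -2.65 (adjusted p = 0.0642). Itgae, the integrin that tethers these cells to the epithelium, stood at -3.09 (adjusted p = 0.0744) and the gut homing receptor Ccr9 at -1.61 (adjusted p = 0.101).

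Ptprc, the CD45 antigen of all white blood cells, read 9.39 and 9.08 in WT against 5.89 and 5.86 in double mutants, and fell by 3.36 (SE 0.46, adjusted p = 0.0199). Other large decreases outside the list were the lymphocyte GTPases Gimap4 at -3.85 and Gimap7 at -3.32, the protease inhibitor of cytotoxic cells Cst7 at -2.92, and Lpxn, an adaptor of white blood cells, at -2.75. Cxcr6, a homing receptor of tissue T cells, fell by 2.01.

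**Figure D3:**
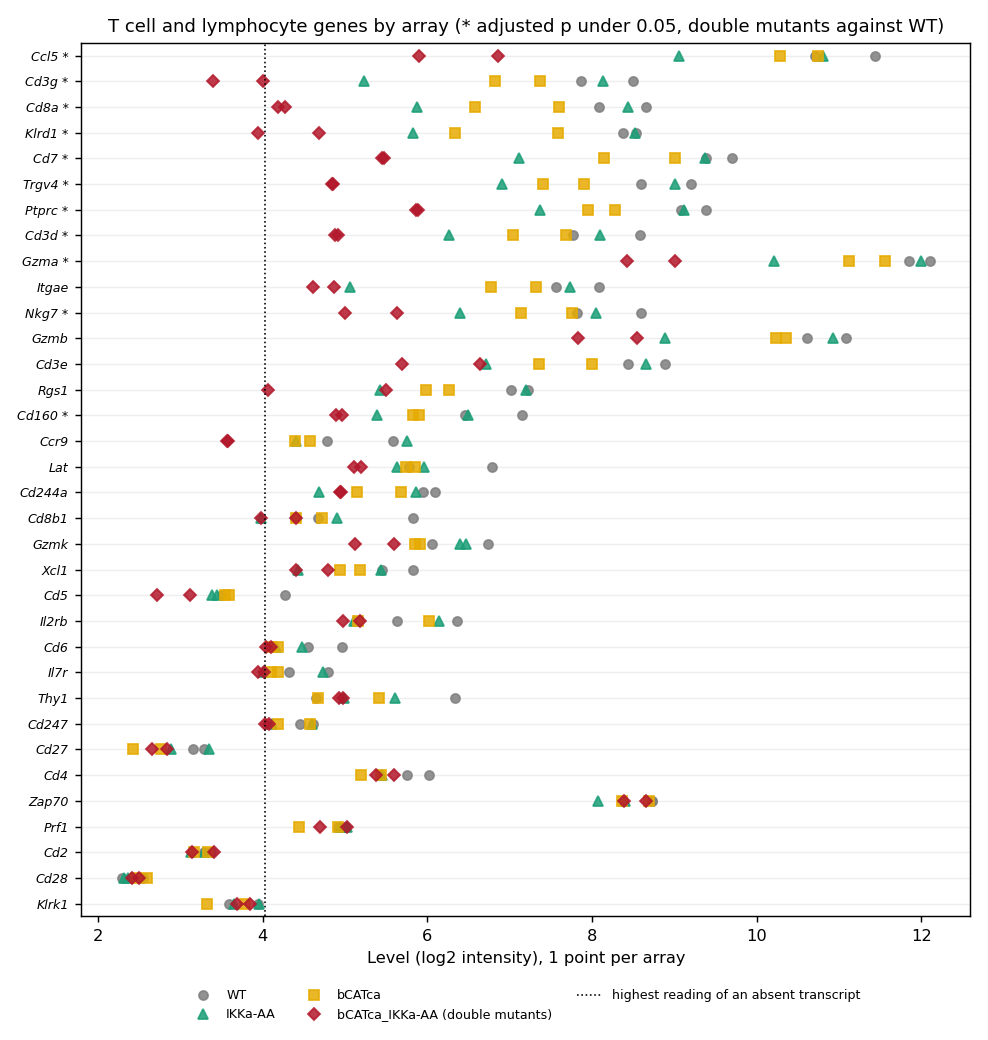
Rows are T cell and lymphocyte genes and symbols the log2 intensity of 1 array each, for WT, IKKa-AA, bCATca and double mutants, with a star at genes past the test and a dotted line at 4.03, the highest reading of an absent transcript. The double mutant arrays lie left of the WT arrays for 29 of 34 genes, the bCATca arrays mostly lie between, and IKKa-AA replicate 1 lies well left of replicate 2 in the upper rows, as for Cd3g at 5.23 and 8.14.

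The summed linear intensity of the 34 lymphocyte genes was 15622 and 11545 in WT and 2239 and 1759 in double mutants. It was 9467 and 7189 in bCATca, and in IKKa-AA it was 3872 in replicate 1 and 12895 in replicate 2. No member passed in bCATca against WT (median -0.62). Directly against bCATca, Ccl5 alone of the 34 fell, by 4.14 (SE 0.55, adjusted p = 0.0180), and 100 of all genes were lower in that comparison (0.807%). The group mean was near background for 5 of the 34 in WT and for 8 in double mutants, Cd3g among them, while Ptprc and Gzma stayed above it.

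Without any WT or double mutant array in turn, 0 of the 34 lymphocyte genes passed, while the median lay between -1.64 and -1.11 in those fits, and without either IKKa-AA array 19 passed. Few genes of other cell types that a preparation can hold passed the test. Of 34 macrophage and myeloid genes, Cd14 rose and Laptm5, a lysosomal protein of white blood cells, fell by 2.48 (median -0.02). Values were above 0 for 17 of the 34 and below for 17, and 16 were near background in WT. Tyrobp had a mean of 8.13 in WT and 5.67 in double mutants, and Fcer1g 8.23 and 6.19. The summed intensity was 4010 and 3944 in WT and 4180 and 3634 in double mutants. It weighs the brightest gene most, Ctss, with means of 11.09 and 11.45. In stroma (25 genes, median -0.12, sums 3380 and 3447 against 2003 and 2160) and endothelium (18 genes, median -0.00, sums 540 and 516 against 541 and 481) none passed. The stroma sums were lower on both double mutant arrays, but they weigh the brightest gene in WT most. That gene, Fbln1, had a mean of 10.96 in WT and 9.56 in double mutants. Of the 25 stroma genes, 9 had a value above 0 and 16 below, and 14 were near background in WT. None of 15 pancreatic acinar genes passed (median 0.45, with 9 values above 0 and 6 below). Their median was -0.08 without double mutant replicate 1 and 0.96 without replicate 2. Their sums, 12772 and 12095 in WT against 9862 and 9013, are dominated by Zg16, which is also in the goblet cell list. Zg16 had a mean of 13.43 in WT and 12.96 in double mutants, so the sums do not describe the acinar enzymes. The part of these cells in the results was not tested.

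Plasma cell products were low in double mutants without passing the test. Igha, the heavy chain of immunoglobulin A, read 10.33 and 10.72 in WT, against 5.50 and 5.64 in double mutants, with 11.75 and 11.31 in bCATca. The groups do not overlap, but the IKKa-AA arrays, at 7.43 and 11.70, differed so widely that the shared spread is large, and the difference from WT was -4.95 (SE 1.07, adjusted p = 0.0683). Igha fell against bCATca, by 5.96 (adjusted p = 0.0444). Jchain, which joins immunoglobulin A units, read 7.08 and 7.34 in WT and 2.34 and 2.72, near background, in double mutants (adjusted p = 0.103). The median of the 18 genes of B and plasma cells was -0.16, their summed intensity was 2026 and 2442 in WT and 785 and 744 in double mutants, and none of the 18 passed.

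The changes of stabilised β-catenin were followed in double mutants for the 12 largest increases and the 12 largest decreases of bCATca against WT. All 12 increases had a smaller value in double mutants, between 0.75 and 3.45, and 9 of them still rose over WT. The decreases had sizes between 0.77 and 5.78, 11 of 12 smaller than in bCATca, and 2 of them passed. These genes were picked for extreme values in bCATca and both comparisons share the WT arrays, so a smaller value elsewhere is partly built in. The direction against bCATca is favoured too, since the same bCATca arrays picked the genes. Set directly against bCATca, 9 of the 12 increases were lower in double mutants past the test (0.807% of all genes were). Of the 12 decreases, 3 were higher (0.403% of all genes were). The 3 increases that did not pass were Anxa10 at -1.90 (adjusted p = 0.257), Wfdc18 at -2.33 (adjusted p = 0.0762) and Myl7 at -1.13 (adjusted p = 0.158).

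Ifitm1, a membrane protein of the interferon-induced family that is also a Wnt target in the intestine, read 4.58 and 4.11 in WT, against 7.22 and 8.36 in double mutants, with 10.80 and 11.06 in bCATca. The 3 groups do not overlap. It rose by 3.45 over WT (SE 0.37, adjusted p = 0.0152) and was 3.14 lower than in bCATca, a fall with adjusted p = 0.0153. Sox17, a transcription factor of the endoderm, read 3.19 and 3.36, 5.96 and 7.20, and 9.65 and 10.05 in the same order, and rose by 3.31 over WT (SE 0.40, adjusted p = 0.0169), with a difference from bCATca of -3.27 (adjusted p = 0.0153). Myl9, a myosin light chain of contractile cells, rose by 1.83 (SE 0.22, adjusted p = 0.0169), against 5.42 in bCATca, a difference of -3.60 between these genotypes (adjusted p = 0.00152). The WT means of Sox17 and Myl9 were near background.

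Igfbp4, a carrier of insulin-like growth factors found in crypt stem cells, read 7.28 and 7.38 in WT, against 9.51 and 10.14 in double mutants, with 11.02 and 11.28 in bCATca. It rose by 2.50 over WT (SE 0.23, adjusted p = 0.0137) with 6 of 6 probe sets in that direction, and stood at -1.32 from bCATca (adjusted p = 0.0408). Bex1 rose by 2.56, Myl7 by 2.50, the phospholipase Pla2g2a by 2.21, Fstl1, a secreted glycoprotein, by 1.99, and Hs6st2, a heparan sulfate sulfotransferase, by 1.25. Their differences from bCATca were -2.60 for Bex1, -1.48 for Pla2g2a, -2.43 for Fstl1 and -2.39 for Hs6st2, all past the test. Clu, which encodes clusterin and marks regenerating epithelium, is the member nearest to WT: it read 5.94 and 6.23 in WT, against 7.46 and 6.21 in double mutants, with 10.22 and 9.95 in bCATca. Its double mutant arrays overlap the WT range, and the difference was 0.75 (95% interval -0.05 to 1.55, adjusted p = 0.320), while it was below bCATca by a difference of -3.25 (adjusted p = 0.0134). Anxa10 stood at 2.20 (adjusted p = 0.161) and Wfdc18 at 1.58 (adjusted p = 0.164), each with double mutant replicate 1 far above replicate 2.

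**Figure D4:**
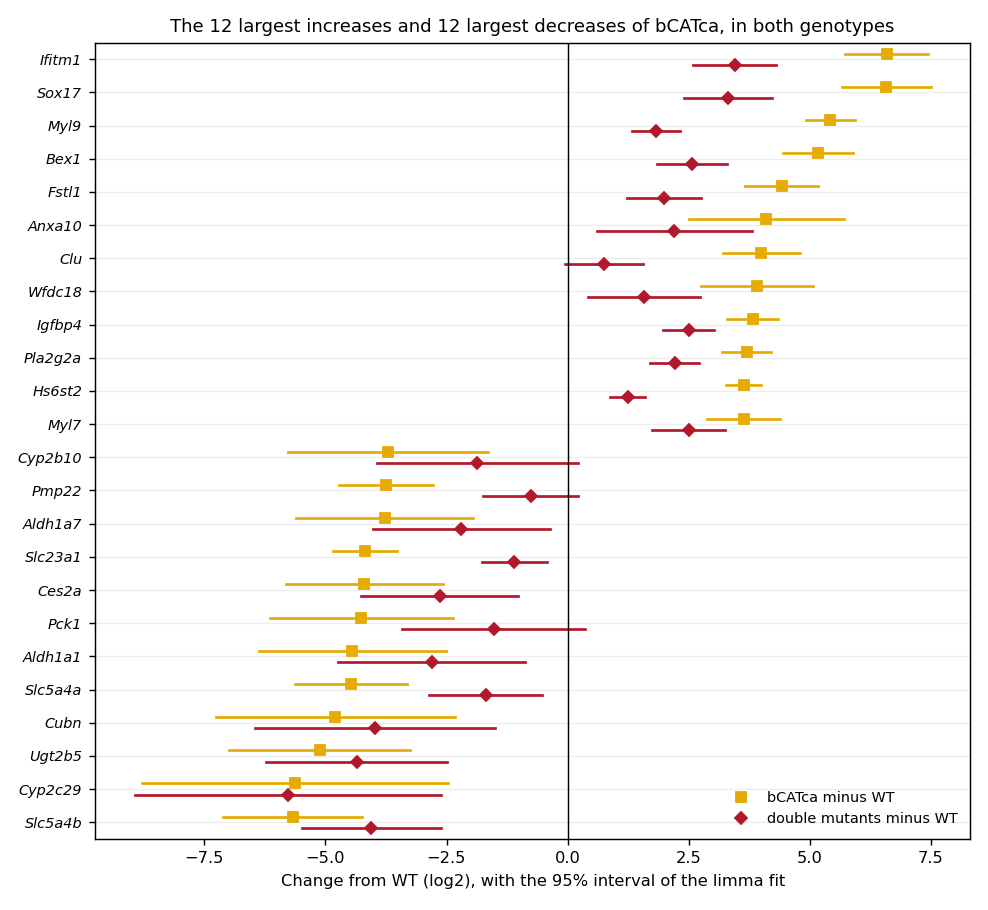
Rows are the 12 largest increases and the 12 largest decreases of bCATca against WT, with the difference from WT in log2 intensity and its 95% interval for bCATca (squares) and double mutants (diamonds). For Slc23a1, at -4.18 and -1.10, the intervals of both genotypes lie apart, while for Cyp2c29, at -5.63 and -5.78, they nearly coincide.

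Of 41 Wnt targets and feedback inhibitors, 4 rose over WT and none fell (9.76%, against 0.984% of all genes that were higher; median 0.24). In bCATca 14 rose, where 5.74% of all genes were higher (median 0.50), so the counts of the 2 comparisons cannot be set against each other directly. Axin2, a scaffold of the β-catenin destruction complex and a direct target, read 7.29 and 7.35 in WT, against 8.41 and 8.71 in double mutants, with 9.43 and 9.26 in bCATca, and rose by 1.24 (SE 0.16, adjusted p = 0.0191). Cd44, an adhesion receptor of crypt cells, rose by 1.37 (SE 0.20, adjusted p = 0.0244) and the Wnt receptor Fzd7 by 1.05 (SE 0.14, adjusted p = 0.0199). Nkd1, an inhibitor of the pathway, rose by 0.88 from a WT mean near background, and fell by 2.16 against bCATca (adjusted p = 0.00192). Notum, a secreted enzyme that inactivates Wnt ligands, stood at 1.20 (adjusted p = 0.0879), Myc at 0.86 (adjusted p = 0.0506) and the stem cell receptor Lgr5 at 0.45 (95% interval -0.94 to 1.83). A TCF core, CTTTGAT or ATCAAAG, was found in the 250 bases before the start of none of the 4 genes that rose. It was found in 3.1% of the promoters of all tested genes. With so few promoters and so low a share, the search cannot show whether these genes lack a site.

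Of 20 crypt stem cell genes, Igfbp4, Cd44 and Axin2 rose and none fell (median 0.32, against 1.08 in bCATca), and Prom1 stood at 0.96 (adjusted p = 0.0529). Of 17 genes of the fetal-like and regenerative epithelium, Ifitm1, Sox17 and Ifitm3 rose and none fell (median 0.43, against 1.34 in bCATca). The genes that rose were 15% of the stem cell list and 17.6% of the fetal-like list, where 0.984% of all genes were higher. Ifitm1 and Ifitm3 belong to the same interferon-induced family, and the part of interferon in their rise was not tested. Ifitm3 was close to its level in bCATca: it read 9.61 and 8.96 in WT, against 11.78 and 11.95 in double mutants, with 12.05 and 12.18 in bCATca, an increase of 2.58 over WT (SE 0.34, adjusted p = 0.0191) and a difference from bCATca of -0.25 (95% interval -1.04 to 0.54, adjusted p = 0.775). Without a WT or double mutant array in turn, 0 to 1 Wnt targets, 0 to 2 stem cell genes and 0 to 2 fetal-like genes passed. The stem cell median was 0.18 without double mutant replicate 2, and the fetal-like median 0.20 without replicate 1.

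Genes of cell division were slightly higher without passing the test. All 34 mitosis genes had a value above 0, which 53.5% of all genes had, with a median of 0.40 and none past the test, nor at an unadjusted p under 0.05. Nusap1, which bundles spindle microtubules, had the smallest p and stood at 0.61 (SE 0.27, adjusted p = 0.302). The median was 0.39 over 32 genes of ribosome biogenesis, 0.21 over 37 of DNA replication and 0.35 over 19 of cholesterol synthesis. In limma 0 members of these lists passed. Before adjustment, 4, 2 and 2 members were higher with a limma p below 0.05. The same held for 9.38% of the genes measured, and whether the lists differ from that share was not tested. The bCATca medians of these 4 lists were 0.53, 0.61, 0.50 and 0.45, and the IKKa-AA medians 0.34, 0.24, 0.20 and 0.22. The IKKa-AA arrays were far apart, with mean mitosis levels of 7.82 and 7.01, beside 7.24 and 6.87 in WT. Which alteration the small rise in double mutants goes with was not tested. The proliferation marker Mki67 read 8.84 and 8.71 in WT against 8.83 and 9.02 in double mutants (95% interval of the difference -0.33 to 0.63). Single WT arrays moved these medians: without WT replicate 2 the mitosis median was 0.18, with 4 of 34 values below 0, and that of DNA replication 0.09, while without WT replicate 1 the cholesterol median was 0.15. Without WT replicate 1, the DNA replication median was 0.35, and without WT replicate 2 the cholesterol median was 0.54.

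Some genes of the absorptive cell fell, most of them enzymes of drug and steroid metabolism. Of 34 genes of phase II metabolism and carboxylesterases, 5 fell and none rose (median -0.94). That is 14.7%, where 0.46% of all genes were lower. Ugt2b5, which couples glucuronic acid to drugs and steroids, read 9.30 and 9.99 in WT against 5.70 and 4.89 in double mutants, and fell by 4.35 (SE 0.81, adjusted p = 0.0461). The carboxylesterase Ces1g read 7.36 and 6.74 against 4.37 and 3.58, a decrease of 3.07 (SE 0.49, adjusted p = 0.0291) to a mean near background. The glutathione transferases Gsta3 and Gstm2 and the carboxylesterase Ces1f fell, with differences of -2.82, -1.96 and -1.07. Their families hold close relatives that a probe set may also read.

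Of 32 phase I genes none passed, although 29 had a value below 0 and 15 of these an unadjusted p under 0.05 (median -0.81). Over all genes, 46.5% had a value below 0 and 7.56% were lower at an unadjusted p under 0.05. Cyp2c29, a cytochrome P450, had the most negative difference of any gene on the arrays and did not pass. It read 9.87 and 10.98 in WT, against 5.07 and 4.23 in double mutants, 5.59 and 4.00 in bCATca, while the IKKa-AA arrays read 4.04 and 9.20. The spread of the IKKa-AA arrays enters the shared error, and the difference was -5.78 (SE 1.38, adjusted p = 0.0875). Ephx1, an epoxide hydrolase, stood at -3.12 (adjusted p = 0.0647) and Cyp3a11 at -1.63 (adjusted p = 0.384). Without either IKKa-AA array 10 phase I and 17 phase II genes passed, and without any WT or double mutant array 0 and at most 1.

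Of 13 genes of sugar handling, 2 fell (15.4%, against 0.46% of all genes that were lower, with a median of -0.94). Slc5a4b, a glucose sensor of the sodium symporter family, read 10.71 and 10.54 in WT, against 6.55 and 6.59 in double mutants, with 5.33 and 4.56 in bCATca, and fell by 4.05 (SE 0.63, adjusted p = 0.0269). G6pc, the glucose-releasing phosphatase, fell by 2.20 (SE 0.41, adjusted p = 0.0442). Slc5a4a, a relative of Slc5a4b in the symporter family, was closer to WT, at 9.63 and 9.87 in WT, against 8.04 and 8.07 in double mutants, with 5.98 and 4.57 in bCATca. It stood at -1.69 from WT (95% interval -2.85 to -0.53, adjusted p = 0.143) and rose by 2.78 over bCATca (adjusted p = 0.0456). The main glucose transporter Slc5a1 stood at -0.20 (95% interval -0.65 to 0.26) and the fructose transporter Slc2a5 at 0.52 (95% interval -0.13 to 1.18).

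Several decreases of bCATca had smaller values in double mutants. Slc23a1, a vitamin C transporter, read 8.11 and 7.43 in WT, against 6.45 and 6.89 in double mutants, with 3.83 and 3.34 in bCATca. It stood at -1.10 from WT (95% interval -1.77 to -0.43, adjusted p = 0.111) and rose by 3.08 over bCATca (adjusted p = 0.00897). Pmp22, a membrane protein known from myelin, stood at -0.77 (95% interval -1.74 to 0.21) with WT arrays at 9.18 and 10.36 and double mutant arrays at 9.16 and 8.84, just apart, and it rose by 2.99 over bCATca (adjusted p = 0.0210). Per2, a repressor of the circadian clock, read 7.24 and 6.68 in WT, against 6.59 and 6.95 in double mutants, with 4.35 and 4.78 in bCATca. Its interval from WT was -0.72 to 0.35, and it rose by 2.20 over bCATca (adjusted p = 0.0134) while 1 of 2 probe sets had the sign given here. Per2 is not among the 12 largest decreases of bCATca. Genes were also named for large differences from bCATca, so its rise over bCATca may be favoured by that choice. The gluconeogenic enzyme Pck1 stood at -1.52 (95% interval -3.41 to 0.36). None of these intervals shows equality with WT, and those of Slc23a1 and Slc5a4a exclude 0.

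Others of the 12 largest decreases of bCATca had large negative values in double mutants without passing. Cubn, the receptor for vitamin B12, stood at -3.98 (adjusted p = 0.115), the retinaldehyde dehydrogenases Aldh1a1 and Aldh1a7 at -2.81 (adjusted p = 0.144) and -2.20 (adjusted p = 0.217), Ces2a at -2.64 (adjusted p = 0.113) and Cyp2b10 at -1.86 (adjusted p = 0.339). Of 21 genes of peptide digestion and amino acid transport, the transporter Slc6a20b alone fell, by 1.67 (SE 0.23, adjusted p = 0.0211; median -0.27). Of 24 genes of lipid absorption none passed (median -0.17, against -0.52), with Apoc3 at -1.42 (adjusted p = 0.146). In 31 genes of PPAR targets and fatty acid oxidation 28 values were below 0 (46.5% of all genes were) and none passed (median -0.28), and Acaa1b, a thiolase of the peroxisome, stood at -4.18 (adjusted p = 0.0533).

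Hormone genes of enteroendocrine cells went both ways. Of 30 measured genes, 2 rose and 6 fell, where 0.984% of all genes were higher and 0.46% lower (median -0.07). Chga, the granin of hormone granules, read 6.71 and 6.89 in WT against 7.95 and 8.60 in double mutants, and rose by 1.48 (SE 0.23, adjusted p = 0.0268). Tac1, the precursor of substance P made by enterochromaffin cells, rose by 1.63 (SE 0.26, adjusted p = 0.0298). Gcg, the precursor of glucagon-like peptides, read 5.80 and 6.37 against 4.57 and 4.16, and fell by 1.72 (SE 0.22, adjusted p = 0.0182). The hormone genes Sst (somatostatin), Ghrl (ghrelin), Gip and Nts (neurotensin) fell, with differences of -1.62, -1.53, -1.48 and -1.28, and the transcription factor Isl1 fell by 1.28 to a mean near background. The bCATca arrays had the same directions, with Chga at 1.30, Tac1 at 1.57, Gcg at -2.32 and Ghrl at -1.51 from WT, and no enteroendocrine gene passed in double mutants against bCATca. Without any WT or double mutant array, 0 of the 30 passed.

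Other secretory cells had few changes. Of 15 Paneth cell genes, Pla2g2a and the stress protein Nupr1, by 1.17, rose (13.3%, against 0.984% of all genes) and none fell. The lysozyme of these cells, Lyz1, stood at -0.80 (adjusted p = 0.173). Of 24 goblet cell genes Retnlb alone passed, and Clca1, a secreted mucus protein, stood at -1.37 (adjusted p = 0.0506). None of 16 tuft cell genes passed (median -0.22), with the tuft cell kinase Dclk1 at -1.29 (adjusted p = 0.260).

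A few genes passed the test in double mutants while the bCATca mean was within 0.2 of WT, 7 in all. This does not by itself show a difference between the genotypes. Set directly against bCATca, Oas3 and Sp100 passed and Ifit3 did not. Besides Oas3, Ifit3 rose by 1.41 and Sp100, a nuclear body protein induced by interferon, by 1.04. Sp100 read 6.65 and 6.44 in WT, against 7.53 and 7.65 in double mutants, with 6.65 and 6.47 in bCATca, and its rise over bCATca was 1.03 (adjusted p = 0.0210). Gcnt2, a glycosyltransferase of blood group I antigen, rose by 0.88, Epsti1 by 0.77 and Pml, the core protein of nuclear bodies, by 0.76. Their means in double mutants and bCATca were 7.83 and 7.06 for Gcnt2, 10.18 and 9.49 for Epsti1, and 7.48 and 6.85 for Pml.

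Further genes that rose belong to several pathways. The metallothioneins, which bind zinc and respond to metals and glucocorticoids, rose together: Mt1 read 10.04 and 9.88 in WT against 11.60 and 11.46 in double mutants, an increase of 1.57 (SE 0.20, adjusted p = 0.0177), and Mt2 rose by 2.17 (SE 0.30, adjusted p = 0.0203). Of 21 genes of the glucocorticoid response, 2 rose (9.52%, against 0.984% of all genes that were higher) and none fell. Their median was 0.06, with 12 values above 0 and 9 below, from -1.52 to 2.17. In the 32 genes of BMP and TGF-β signalling 3 rose (9.38%, against 0.984% of all genes that were higher). They were Fstl1, the receptor Tgfbr2 by 1.24 (1 of 3 probe sets shared its sign), and the signal transducer Smad4 by 0.87 with 3 of 3. Hk2, which starts glycolysis, read 6.71 and 6.76 in WT against 9.10 and 9.23 in double mutants, and rose by 2.43 (SE 0.46, adjusted p = 0.0461), the only one of 23 glycolysis genes that passed. The remaining names among the 20 largest increases past the test were Slfn4, a Schlafen protein of immune responses, at 3.35, the secreted phospholipase Pla2g5 at 3.03, the NF-κB adaptor Tifa at 2.67, the monooxygenase Moxd1 at 2.66 from a WT mean near background, and Rasd1, a small GTPase induced by dexamethasone, at 2.59. For Pla2g5 the WT arrays were far apart, at 5.34 and 3.84, below the 7.54 and 7.70 of double mutants. Outside the fixed lists lay 101 of the 179 genes.

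**Figure D5:**
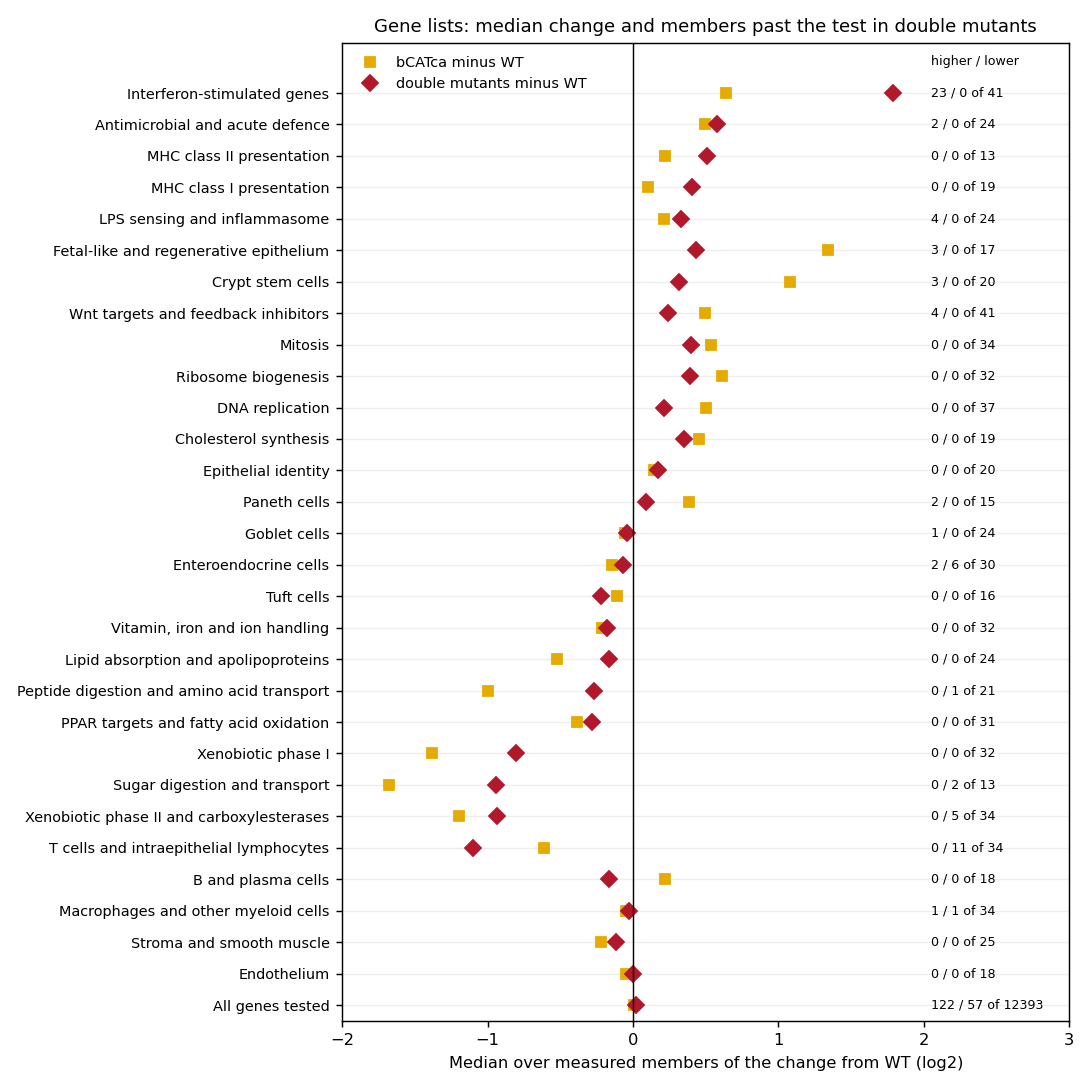
Each row is a gene list, with the median over its measured members of the log2 difference from WT for bCATca (squares) and double mutants (diamonds), and at the right the members that were higher or lower past the test in double mutants. Interferon-stimulated genes stand at 1.78 in double mutants and 0.64 in bCATca, fetal-like genes at 0.43 and 1.34, and T cell genes at -1.10 and -0.62. Both medians use the same WT arrays.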

How the data were processed

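The deposited values are linear intensities by probe set. RMA, run in affy, is named in the submitters' processing notes, and no version is stated in the sources used here. RMA evens out array distributions, so a shift common to most genes cannot be seen. Log2 of each deposited intensity was taken. Of 22690 probe sets, 20380 carried 1 gene symbol, 691 several and 1555 none, and 64 were controls. The brightest single-symbol probe set by the mean of all 8 arrays stood for a gene, which gave 12393 genes, 4956 of them with several probe sets. Limma 3.58.1 in R 4.3.3 (lmFit, contrasts.fit, eBayes) fitted 1 mean per group to all 8 arrays, with 4 residual and 4.28 prior degrees of freedom, and was tested on simulated data. Tables and figures were made with Python 3.11.15, pandas 2.3.3, numpy 2.4.6 and matplotlib 3.10.9. The 56 gene lists hold 1203 measured genes and were described by counts and medians. The comparison, the lists and the naming rule (the 20 largest changes in each direction, list members, the 12 largest changes of bCATca in each direction, the 6 largest differences from bCATca in each direction, Ctnnb1, and up to 6 genes changed with bCATca within 0.2 of WT) were chosen with earlier results of these data known. Alternatives covered scaling, filters, probe set rules, the model and each array left out. Promoters came from a RefSeq table (GRCm38.p6). The gene encoding IKKα is not reported here.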

Additional observations from a re-analysis of the deposited data

Results flagged for a closer look

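Probe sets that carry several gene symbols or none lie outside the gene table and entered a separate fit over the full 22690. Of 2246 such probe sets, 10 were higher in double mutants than in WT past the test (limma, adjusted over all probe sets) and 12 lower, together 0.98%, with the largest increase at 5.47 and the largest decrease at -5.56. They name no gene here. None of the 64 control probe sets passed.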

How the results depend on the processing

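The count of 179 genes was 198 with quantile normalisation, 161 with cyclic loess, 201 with an intensity trend, 135 with the mean of a gene's probe sets, 136 among the 6196 genes above the median level and 151 at 2-fold or more, and 193 over all probe sets. It moved further with the 4 arrays alone (816) and with the replicate block (71). Same-numbered replicates deviated with correlations from -0.448 to 0.15, so the numbers pair no samples and the block is only an alternative. Leaving out 1 array gave counts from 7 to 661. Higher genes made up 68.2% of the calls, 46.5% with the 4 arrays alone, 61.1% with quantile normalisation, 66.5% with cyclic loess and 76.1% with the replicate block. The median difference over all genes was 0.02 as deposited, 0.02 after quantile normalisation and 0.00165 after cyclic loess. No named gene that passed the test changed direction in any alternative run. Of those that did not pass, 4 changed sign when an array was left out: Per2 ranged from -0.468 to 0.0912, Slc5a1 from -0.445 to 0.0504, Lgr5 from -0.130 to 1.02 and Epcam from -0.0475 to 0.0827. The 2 arrays per group and the wide spread of IKKa-AA limit the precision, and genes near background have no exact fold.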
